A study of Mus musculus with 4 samples.

Results

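The cells described here, labelled caudal and allantoic mesenchyme, are cells of the caudal mouse embryo that hold *Tbx4* transcripts. A cluster of them, described below, went against that label. There were 493 of them among the 20198 cells that passed filters (2.44%). They were selected on raw counts of unique molecular identifiers (UMIs, which mark single captured transcripts): 2 or more *Tbx4* UMIs, no UMI of the endothelial cadherin gene *Cdh5*, and no more than 1 UMI of the epithelial gene *Epcam*. A filtered cell had 3000 or more detected genes, 7500 or more UMIs and no more than 7% of its UMIs from mitochondrial genes. They are called Tbx4 cells below. Because *Tbx4*, *Cdh5* and *Epcam* chose the cells, the levels of these genes are given as a description only.

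The study compared E8.5 wild-type (WT) embryos with *Grhl3*-null embryos, which lack the transcription factor gene *Grhl3* in all tissues and were bred from *Grhl3*+/- parents on a C57BL/6 background. Caudal cells were pooled by genotype, from 5 embryos for WT and 3 for null, and each pool was loaded in 2 reactions, giving the libraries WT 1, WT 2, null 1 and null 2. Both libraries of a genotype therefore hold the same embryos, and every p-value below measures the spread between repeated reactions and not that between embryos. Of the 6 pairs of libraries, each shared between 7 and 16 cell barcodes, and no barcode of a Tbx4 cell occurred in 2 libraries. The Tbx4 cells numbered 92 in WT 1, 71 in WT 2, 182 in null 1 and 148 in null 2. They carried 4160871, 3666200, 8669039 and 6514676 UMIs in that order. Their median depth was 37642.5, 41234, 41415 and 37417 UMIs per cell, against 33391, 34572.5, 38070 and 35514 over all filtered cells.

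The allantois is an outgrowth of extraembryonic mesoderm at the posterior end of the embryo. It joins the chorion, and its vessels become those of the umbilical cord and of the fetal side of the placenta. *Tbx4*, a T-box transcription factor gene, is known from the allantois and its vessels and, later, from the hindlimb field, where the homeobox gene *Pitx1* acts upstream of it. The name caudal and allantoic mesenchyme came with 5 marker genes, of which *Tbx4* chose the cells, so high levels of these markers do not check it. The markers and lists of this and neighbouring tissues are given below as a description.

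*Tbx4* (ENSMUSG00000000094, mm10 chromosome 11, 85886422 to 85916097, plus strand) had 122 CPM (the gene's share of all UMIs summed over the cells of a library, scaled to a common total) in WT 1, 94.1 in WT 2, 130 in null 1 and 122 in null 2. These values chose the cells. *Capn6*, an X-linked member of the calpain family without protease activity, had 113, 115, 149 and 140 CPM in the same order. The imprinted gene *Phlda2*, a brake on placental growth, was the most abundant of the 5 at 1739, 1344, 2365 and 2120 CPM. All were far above the level in a comparator, called Foxf1 mesenchyme below. It was made up of 4780 cells with 2 or more *Foxf1* UMIs, no *Tbx4* UMI and the same limits on *Cdh5* and *Epcam*. *Foxf1* is a forkhead gene of lateral plate and extraembryonic mesoderm.

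In Foxf1 mesenchyme *Capn6* lay between 9.70 and 11.5 CPM and *Phlda2* between 385 and 483 CPM. *Pitx1*, which directs hindlimb identity, had 300, 283, 298 and 326 CPM in Tbx4 cells. In Foxf1 mesenchyme it had 98.4, 104, 54.7 and 58.6 CPM. The Tbx4 cells were thus alike in *Pitx1* across genotypes, while the Foxf1 mesenchyme of the null libraries lay below that of the WT libraries. *Tbx20*, a T-box gene best known from the heart, had 34.4, 19.4, 67.3 and 68.2 CPM in Tbx4 cells and at most 5.79 CPM in Foxf1 mesenchyme. The 4 genes other than *Tbx4* were each higher in Tbx4 cells than in Foxf1 mesenchyme in each library, while *Tbx4* itself is absent there by the rule.

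**Figure D1:**
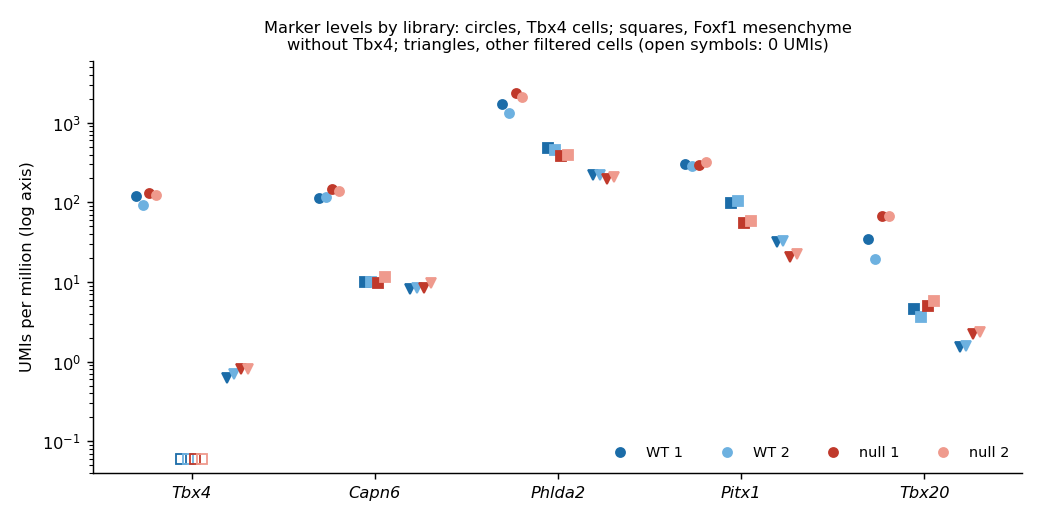
Level of the 5 marker genes, in CPM on a log axis, in each library; circles are Tbx4 cells, squares are Foxf1 mesenchyme without *Tbx4*, triangles are all filtered cells outside the gate, and colours are libraries. Circles lie above squares for every gene, and the *Tbx20* circles of the null libraries (67.3 and 68.2) lie above those of the WT libraries (34.4 and 19.4).

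The 15 genes with the highest fold over Foxf1 mesenchyme (means over 4 libraries, 5 CPM added to both) were *Tbx4*, *Capn6*, *Cdkn1c*, *Pcgf5*, *Plac1*, *Tbx20*, *Asb4*, *Pcsk1n*, *Gata5*, *Morc4*, *Amot*, *Hoxa10*, *Phlda2*, *Spin2c* and *Twist1*. After *Tbx4* itself (24.4-fold), *Capn6* stood at 8.79-fold and *Cdkn1c*, an imprinted inhibitor of cyclin-dependent kinases, at 8.30-fold. *Pcgf5*, a subunit of Polycomb repressive complexes, came next, followed by *Plac1*, an X-linked gene of the placenta, at 5.91-fold. Several of these genes are known from the placenta or its stalk. Of 19 genes of allantois mesenchyme 14 were higher than in Foxf1 mesenchyme, with a median log2 fold of 0.79. For hindlimb and caudal lateral plate it was 11 of 16 (0.34), and for general lateral plate 9 of 14 (0.58). The median over all genes of at least 10 CPM that are not X-linked was 0.02. These folds rest on the contrast that chose the cells and have no test.

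Near the threshold, cells with exactly 2 *Tbx4* UMIs (95 cells) had 237 CPM of *Pitx1*, 78.5 of *Capn6*, 1027 of *Phlda2* and 18.3 of *Tbx20*. Cells just outside, with exactly 1 *Tbx4* UMI (265 cells), had 160 CPM of *Pitx1*, 26.1 of *Capn6*, 699 of *Phlda2* and 7.11 of *Tbx20*. Cells with no *Tbx4* UMI had 27.8, 5.62, 208 and 1.72 CPM of the same genes. The markers thus differed by steps across the threshold, with the 257 cells of 5 or more *Tbx4* UMIs highest. The other limits removed few cells: of 554 filtered cells with 2 or more *Tbx4* UMIs, 53 had more than 1 *Epcam* UMI and 8 had a *Cdh5* UMI.

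Free RNA in droplets can give UMIs to cells that do not express a gene, so detection was set beside that in neural cells. After every cell was thinned to 7500 UMIs, *Pitx1* was detected in 1.98% of the 5163 cells with 3 or more UMIs of the neural gene *Sox2* outside the gate, which had a median of 41706 UMIs before thinning, against 6.88% without thinning. *Tbx20* was detected in 0.213% of them after thinning and in 1.12% before. In Tbx4 cells outside the cluster of paraxial genes described next, with a median of 37463.5 UMIs, *Pitx1* was detected in 87.2% after thinning and 99.7% before. *Tbx20* was detected in 38.0% of these cells after thinning and 74.9% before. For *Capn6* it was 2.07% and 11.8% in the neural cells and 63.4% and 90.4% in these Tbx4 cells. *Phlda2* was found more widely, at 17.7% and 44.1% against 99.7% and 100%. In Foxf1 mesenchyme *Pitx1* had 30.9% and 49.5%, *Tbx20* 2.85% and 8.91%, *Capn6* 7.89% and 27.3%, and *Phlda2* 74.1% and 90.6%.

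The Tbx4 cells fell into 4 clusters, described by the genes with the highest fold over the other Tbx4 cells. Cluster 1 (130 cells) was led by *Acta2* (231 CPM against 14.2 in the other clusters) and *Tagln* (75.5 against 3.51), genes of the contractile cytoskeleton, and by the collagen genes *Col1a2*, *Col1a1* and *Col3a1*. Cluster 3 (126 cells) was led by weaker differences in *Prdm1*, *Ngfr* and *Hoxd13*, and had the highest *Isl1* (178 CPM), a LIM homeobox gene of the hindlimb field. Cluster 4 (110 cells) was led by *Hhex*, *Tal1*, *Etv2* and *Sox17*, transcription factor genes of early blood vessel and blood development. *Etv2* had 215 CPM in cluster 4 against 44.8 in the other clusters, although every cell lacked *Cdh5* by the rule. *Etv2* and *Tal1* are on the list of endothelial markers, so cluster 4 was given no cell type name either.

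Cluster 2 (127 cells) went against the name caudal and allantoic mesenchyme. Its leading genes were *Epha5*, *Meox1* and *Tcf15*, of which the last 2 are transcription factor genes of the somite, and *Dll1*, *Fgf8* and *Sox2* also led it. *Tbx4* was lower there (65.9 CPM) than in clusters 1, 3 and 4 (142, 140 and 169 CPM), and so were *Capn6* (46.6 against 150, 152 and 257 CPM) and *Tbx20* (10.5 against 108, 23.2 and 92.7 CPM). *Pitx1* (228 against 388, 293 and 332 CPM) and *Phlda2* (814 against 3050, 1734 and 3108 CPM) were lower there as well but were detected about as often, in 81.9% and 94.5% of thinned cells of cluster 2 against 87.2% and 99.7% of the other Tbx4 cells. Of its cells, 44 had exactly 2 *Tbx4* UMIs, and its median depth of 52154 UMIs was the highest of the 4. It also held 21 of the 24 Tbx4 cells among the 5% highest doublet scores, which is 16.5% of its cells against 0.820% of the other Tbx4 cells. These cells meet the rule and were kept in the counts, and the main genotype results below are also given without them, an alternative chosen after the clusters were seen. The part of doublets in cluster 2 was not tested further.

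**Figure D2:**
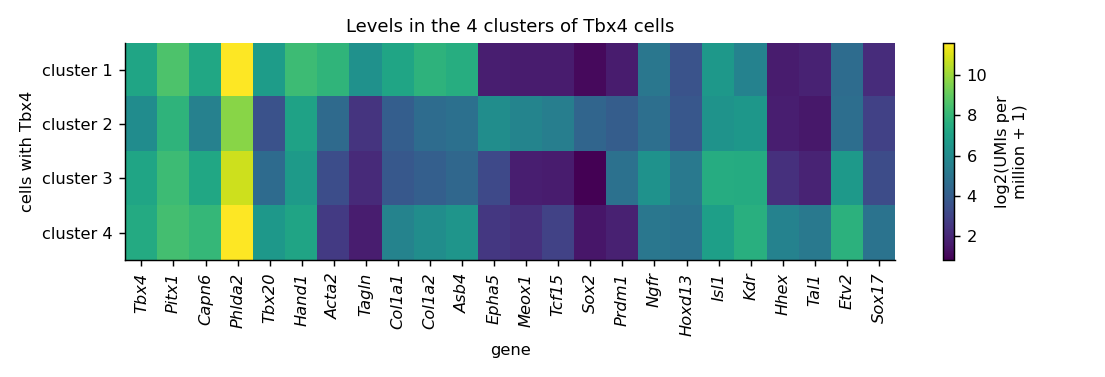
Level of 24 genes (columns) in the 4 clusters of Tbx4 cells (rows), as log2 of CPM plus 1, with the 1 haemoglobin-filled cell left out. *Acta2* and *Tagln* are highest in cluster 1, *Epha5*, *Meox1*, *Tcf15* and *Sox2* in cluster 2, and *Hhex*, *Tal1* and *Etv2* in cluster 4, while *Pitx1* and *Phlda2* are high in all 4.

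By library (WT 1, WT 2, null 1 and null 2), cluster 1 held 18, 10, 63 and 39 cells, cluster 2 held 30, 35, 31 and 31, cluster 3 held 29, 17, 45 and 35, and cluster 4 held 15, 9, 43 and 43. These sizes are a description and no result between genotypes, because genes that lead the clusters also differed between genotypes. A single cell of null 2 in cluster 4, with 2 *Tbx4* UMIs and 78036 UMIs in all, carried 5850 UMIs of haemoglobin and other red cell genes and had one of the highest doublet scores. It alone set the level of the 11 erythroid genes in null 2 at 933 CPM, against 37.7, 33.0 and 32.5 CPM in WT 1, WT 2 and null 1.

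Markers of other tissues were present to different extents. The 14 endothelial genes summed to 238, 235, 267 and 412 CPM, against 149, 144, 181 and 199 CPM in Foxf1 mesenchyme, with *Kdr* the most abundant and *Cdh5* at 0 by the rule. Gut endoderm genes (10, led by *Apela*) summed to 85.8, 99.0, 121 and 111 CPM, against 43.2, 43.2, 62.7 and 65.0 CPM in Foxf1 mesenchyme, and visceral endoderm genes (8, led by *Rbp4*) to between 8.89 and 14.3 CPM. The 10 presomitic and somite genes, led by *Meox1*, summed to 82.2, 47.5, 93.4 and 66.0 CPM, and without cluster 2 to 23.2, 24.1, 17.3 and 18.3 CPM, with *Msgn1* at 0. Neural and neuromesodermal genes (8, led by *Nkx1-2*) summed to 74.0, 70.1, 56.2 and 75.7 CPM. Surface ectoderm genes (10, led by *Wnt6*) summed to 15.1, 11.5, 12.6 and 13.2 CPM with *Krt5* at 0, and germ cell genes (8, led by *Prdm1*) to 24.3, 24.0, 15.6 and 21.6 CPM. The endothelial and endoderm sums were higher in the null libraries with cluster 2 included. Without it the endothelial sums were 290 and 302 CPM in WT and 293 and 471 CPM in null, which overlapped. The gut endoderm sums did not overlap without it, at 93.5 and 109 CPM in WT and 133 and 115 CPM in null. Nor did the visceral endoderm sums, at 6.91 and 9.23 CPM in WT and 14.8 and 14.4 CPM in null. In Foxf1 mesenchyme the visceral endoderm sums were 8.97 and 10.3 CPM in WT and 15.4 and 17.2 CPM in null. Both endoderm sums were thus higher in null there as well, so this order is not particular to Tbx4 cells. In the genotype test below, 2 of 10 endothelial and 2 of 4 gut endoderm genes tested rose, where 1.91% of all genes did. Without cluster 2 none of 9 and none of 4 rose. The part of these tissues in the genotype results was not tested. The 9 trophoblast and chorion genes summed to 333, 414, 331 and 309 CPM, mostly *Cdx2*, which caudal mesoderm also expresses, with *Wnt7b*, *Esx1* and *Prl3d1* at 0.

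Tbx4 cells made up more of the null libraries. They were 1.69% of filtered cells in WT 1 (exact 95% Clopper-Pearson interval 1.36 to 2.06), 1.39% in WT 2 (1.09 to 1.75), 3.76% in null 1 (3.24 to 4.33) and 3.10% in null 2 (2.62 to 3.63). The mean was 1.54% ± 0.210 (SD, n = 2 libraries) in WT and 3.43% ± 0.469 in null, a ratio of 2.23. All intervals here cover counting error only. Without cluster 2 the shares were 1.14%, 0.704%, 3.12% and 2.45%, a ratio of 3.03. These cells were deeper in the null libraries, with medians of 30596.5 and 34338.5 UMIs in WT and 39753 and 35758 in null, and the rule counts raw *Tbx4* UMIs. With every cell thinned to 7500 UMIs before the rule was applied, the shares of all Tbx4 cells were 0.476%, 0.332%, 1.03% and 0.795%, a ratio of 2.26, and the thinned share without cluster 2 was not computed. The filters kept 5459 of 6186 barcodes in WT 1, 5116 of 5698 in WT 2, 4842 of 6177 in null 1 and 4781 of 6178 in null 2. With no cell filter the shares were 1.54%, 1.30%, 2.96% and 2.53%, a ratio of 1.94. The libraries of the genotypes did not overlap in any of these, and the two-sided exact permutation test gave p = 0.33, the smallest value that 2 libraries against 2 allow.

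The difference in share depended on the sex of the cells, which was called from *Xist* and 4 Y-linked genes. Among cells called female, Tbx4 cells were 1.06% in WT 1, 0.736% in WT 2, 6.04% in null 1 and 5.59% in null 2. Among cells called male, they were 3.02% in WT 1, 2.82% in WT 2, 2.46% in null 1 and 1.83% in null 2. The null libraries thus lay 4.92 percentage points above the WT libraries in female cells and 0.777 points below them in male cells, each with p = 0.33 in the exact permutation test. Without cluster 2 the female shares were 0.545% and 0.276% in WT and 5.27% and 4.65% in null. The male shares were then 2.46% and 1.74% in WT and 2.06% and 1.43% in null, so the libraries of the genotypes overlapped in male cells. With cluster 2 included, the intervals of male cells overlapped between genotypes (2.14 to 4.12 in WT 1 and 1.86 to 3.18 in null 1), and those of female cells did not (0.748 to 1.46 in WT 1 and 4.54 to 6.79 in null 2).

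**Figure D3:**
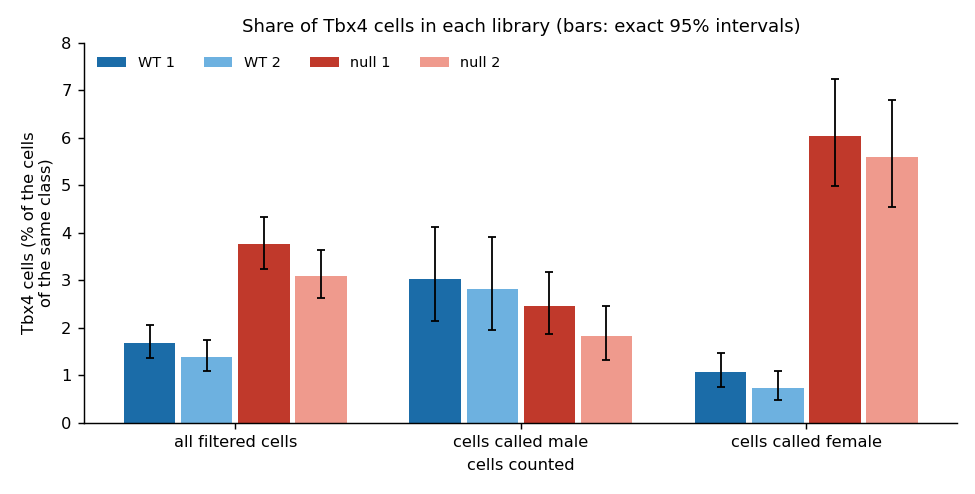
Tbx4 cells as a percentage of all filtered cells, of cells called male and of cells called female in each library; error bars are exact 95% intervals for counting error. In female cells the null libraries (6.04% and 5.59%) lie above the WT libraries (1.06% and 0.736%), and in male cells they lie below (2.46% and 1.83% against 3.02% and 2.82%), an order that is lost without cluster 2.

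Outside cluster 2, the sexed Tbx4 cells were 19 female and 31 male in WT 1 and 9 female and 21 male in WT 2. Among the other filtered cells the female share was 73.9% and 73.4%. In null 1 and null 2, 67.1% and 70.5% of these Tbx4 cells were female, against 43.5% and 41.5% of the other filtered cells. In cluster 2 the female share was 72.0%, 53.6%, 60.9% and 64.0% in WT 1, WT 2, null 1 and null 2. Tbx4 cells outside cluster 2 were therefore mostly male in WT and mostly female in null, each against the sex ratio of its own pool, a difference that was not tested. With 5 and 3 embryos pooled, each sex stands for few embryos, and embryo and genotype cannot be told apart.

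Genotype was then compared by the edgeR quasi-likelihood test on UMIs summed over the Tbx4 cells of each library. Of 10798 genes tested, 206 were higher in null (1.91% of genes tested) and 150 were lower (1.39%) at an adjusted p below 0.05. When a change of 1 or more on the log2 scale was also required, 40 were higher (0.37%) and 22 lower (0.204%). Without the cells of cluster 2, 27 of 10149 genes were higher (0.266%) and 23 lower (0.227%), and 41 of these 50 genes had also been called with cluster 2. Male cells alone gave 37 calls and female cells alone 1110, both with cluster 2 included. It held 33 of 61 female and 20 of 72 male Tbx4 cells in WT, and 30 of 205 and 18 of 98 in null. Its part in the calls by sex was not tested. Both libraries of *Grhl3*-null lacked most *Grhl3*, with 12 and 14 UMIs in all filtered cells against 878 and 803 in WT, and Tbx4 cells held only 4, 1, 0 and 1 of these UMIs.

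Some genes of allantois mesenchyme and of the extracellular matrix were higher in the null Tbx4 cells. On the allantois list 7 of 18 genes tested rose and none fell, and without cluster 2 these counts were 2 and 0, where 1.91% and 0.266% of all genes tested rose. The median log2 fold change of the list was 0.47, and 0.25 without cluster 2, against 0.00 over all genes in both. On the matrix and contractile list 9 of 19 genes rose and none fell, and without cluster 2 it was 4 of 20, with medians of 0.41 and 0.23. These lists were drawn up with earlier results of these data known.

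*Tbx20* had 34.4 and 19.4 CPM in WT and 67.3 and 68.2 CPM in null, a log2 fold change of 1.31 ± 0.20 (SE, edgeR adjusted p = 0.0148). Its libraries did not overlap between genotypes. Without cluster 2 the change was 0.73 (edgeR adjusted p = 0.00233), and within that set it was 0.25 in male and 1.41 in female cells. *Asb4*, an imprinted gene for a ubiquitin ligase subunit, had 38.5 and 42.0 CPM in WT and 105 and 87.2 CPM in null (1.26 ± 0.11, edgeR adjusted p = 3.4e-06). Without cluster 2 its change was 1.01 (edgeR adjusted p = 0.00071), with 0.16 in male and 1.80 in female cells. Both genes were therefore higher in null with and without cluster 2, and their values were larger in female than in male cells, which was not tested. Outside cluster 2, 3 of 28 female cells in WT and 51 of 175 in null were in cluster 4. Of male cells it was 18 of 52 and 31 of 80.

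*Anxa2*, which codes for a membrane-binding annexin, had 7.93 and 4.36 CPM in WT and 22.4 and 17.8 CPM in null (1.69 ± 0.23, edgeR adjusted p = 0.00065). *Cd44*, the receptor for hyaluronan, had 14.2 and 11.7 CPM in WT and 28.7 and 32.7 CPM in null (1.23 ± 0.16, edgeR adjusted p = 0.00026). *Has2*, which makes hyaluronan, had 15.6 and 14.7 CPM in WT and 36.6 and 32.4 CPM in null (1.18 ± 0.14, edgeR adjusted p = 0.00019). Both the receptor and the synthase of the same matrix sugar rose. All 3 passed without cluster 2, at 1.41, 0.85 and 0.88 (edgeR adjusted p = 0.0165, 0.029 and 0.035).

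Several of these genes were unevenly spread over the clusters. *Anxa2*, *Asb4*, *Col1a2*, *Sparc* and *Smarcd3* were among the 30 leading genes of cluster 1, and *Cd44* and *Cdkn1c* among those of cluster 4. *Tbx20* was highest in clusters 1 and 4, as its levels above show. The cells of each cluster per library are given above, and the part of the clusters' make-up in these changes and the part of the changes in the clustering cannot be told apart. Within clusters 1 and 4 taken alone *Asb4* passed at 0.67 and 1.08 (edgeR adjusted p = 0.00973 and 0.0171). *Cd44* passed in no cluster alone and had -0.22 in cluster 3, and *Has2* and *Tbx20* passed in none in which they were tested.

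Other matrix genes changed less. The collagen gene *Col1a2* had 47.3 and 43.6 CPM in WT and 106 and 96.1 in null (1.15, and 0.57 without cluster 2). *Sparc*, a matrix glycoprotein gene, *Fn1*, the fibronectin gene, and *Vcan*, a hyaluronan-binding proteoglycan gene, rose by 0.58, 0.28 and 0.84, and by 0.53, 0.29 and 0.39 without cluster 2. All 4 passed the edgeR test both ways. By contrast *Col1a1*, *Postn*, *Lamb1*, *Cnn2* and *Lgals1* passed only with cluster 2 included. *Smarcd3*, a chromatin remodeller subunit, *Ccdc80*, a secreted matrix protein gene, and *Grrp1* were among the 12 largest rises and did not pass without cluster 2.

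Among the 4 testable markers, *Capn6* rose with cluster 2 included (0.34, edgeR adjusted p = 0.0153) and had -0.19 without it (edgeR adjusted p = 0.736). *Pitx1* had 0.09 and *Phlda2* 0.54, and neither passed (edgeR adjusted p = 0.513 and 0.29). On the list of imprinted growth genes 6 of 18 rose and none fell, and without cluster 2 these were 2 of 18, *Cdkn1c* and the noncoding RNA gene *Meg3*, where 1.91% and 0.266% of all genes rose. *Cdkn1c* had 654 and 501 CPM in WT and 1122 and 1083 CPM in null. Its change was 0.93 (edgeR adjusted p = 0.055) with cluster 2 and 0.41 (edgeR adjusted p = 0.0009) without it.

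Most calls on the signalling lists were lost without cluster 2. The counts on these and the following lists stand beside 1.91% of all genes that rose and 1.39% that fell, or 0.266% and 0.227% without cluster 2. Of 22 bone morphogenetic protein (BMP) pathway genes 3 rose, *Bmp2*, *Bmp5* and *Smad6*, and none of 21 passed without cluster 2. Of 14 Wnt pathway genes 2 rose, *Wnt2* and *Sfrp1*, and 5 fell, *Wnt5a* and the Wnt targets *Axin2*, *Lef1*, *Nkd1* and *Notum*. Without cluster 2 the secreted Wnt antagonist *Sfrp1* alone passed of 12. On the list for union of chorion and allantois 2 of 16 rose and 3 fell, and none of 15 passed without cluster 2. Of 16 genes of hindlimb and caudal lateral plate 3 rose and 2 fell, and without cluster 2 *Isl1* and *Hoxd1* fell and none rose.

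Other lists gave few calls. With cluster 2, 2 of 13 general lateral plate genes rose and 1 fell, 1 of 6 T-box genes rose, 1 of 16 genes of hypoxia and glycolysis rose, 1 of 15 proliferation genes rose and 1 fell, 1 of 8 genes of the response to dissociation fell, and none of 10 p53 targets passed. Without cluster 2 *Tbx20* was the only call on these lists. Of 4 marker lists of 15 genes that the study drew from these same samples, and which are therefore not independent evidence, the 2 for mesenchyme each had 4 genes that rose and 1 that fell, and without cluster 2 only 1 gene of the second rose and none fell. Those for caudal mesoderm and lateral plate had 3 and 5 that fell and none that rose, and without cluster 2 it was 2 and 1.

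**Figure D4:**
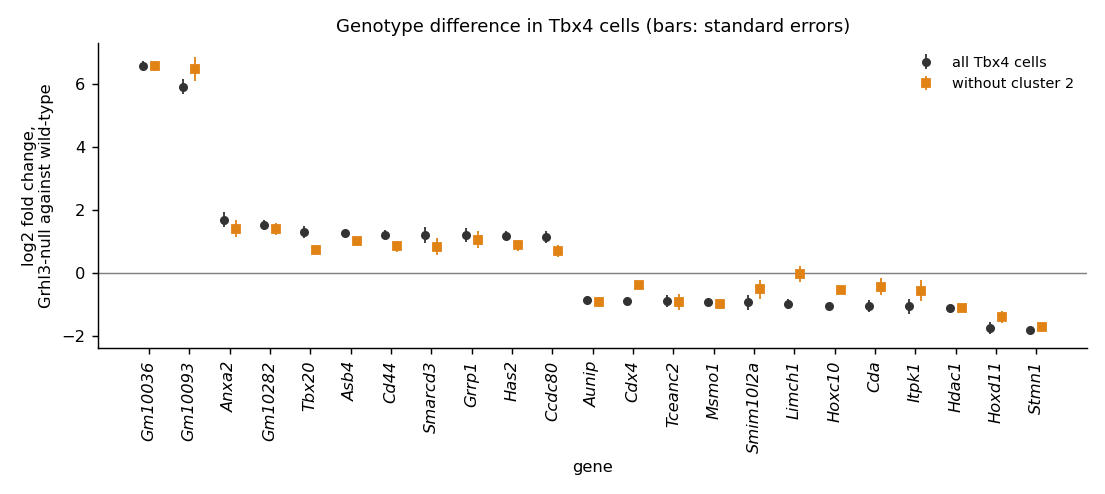
Log2 fold change of *Grhl3*-null against WT for 11 of the 12 genes with the largest rise and the 12 with the largest fall in Tbx4 cells, with standard errors; circles are all Tbx4 cells and squares are those without cluster 2. *Limch1* lies at -0.96 with and -0.03 without cluster 2, while *Stmn1* (-1.80 and -1.72) and *Hdac1* (-1.12 and -1.09) hardly move.

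Some Hox genes fell in null Tbx4 cells and none passed as higher. Of 12 posterior Hox genes tested 6 fell, where 1.39% of all genes did, and without cluster 2 it was 2, *Hoxc10* and *Hoxd11*, while of 23 anterior ones 4 fell, and without cluster 2 *Hoxd1* alone of 22.

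The largest falls were in *Stmn1* and *Hoxd11*. *Stmn1*, which codes for the microtubule regulator stathmin, had 744 and 846 CPM in WT and 206 and 254 CPM in null (-1.80 ± 0.10, edgeR adjusted p = 3.8e-05), and -1.72 without cluster 2. *Hoxd11*, a posterior Hox gene, had 54.1 and 36.0 CPM in WT and 12.2 and 15.5 CPM in null (-1.73 ± 0.19, edgeR adjusted p = 0.00049), and -1.38 without cluster 2 (edgeR adjusted p = 0.0021). *Hoxc10* had 146 and 122 CPM in WT and 62.8 and 68.6 CPM in null (-1.04 ± 0.09, edgeR adjusted p = 3.4e-06), and -0.53 without cluster 2 (edgeR adjusted p = 0.029). The WT and null libraries of these genes did not overlap. The other genes among the 12 largest falls were *Hdac1*, *Itpk1*, *Cda*, *Limch1*, *Smim10l2a*, *Msmo1*, *Tceanc2*, *Cdx4* and *Aunip*, and of these *Hdac1*, *Msmo1* and *Aunip* also passed without cluster 2.

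Several of the largest changes were in genes near *Grhl3* or in near-identical copies of them. *Grhl3* lies on chromosome 4 (mm10, 135541888 to 135573630, minus strand), and *Stmn1* lies 1.09 Mb from it, *Hdac1* 6.03 Mb and the ribosomal protein gene *Rpl11* 0.483 Mb. Of 180 genes tested within 10 Mb of *Grhl3*, 19 were called (10.6%, against 3.30% of all genes), and without cluster 2 it was 7 of 165 (4.24% against 0.493%). These 7 include *Hdac1*, *Hmgn2* and *Rpl11*, whose values are uncertain for the reason given next.

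*Gm10036*, a processed pseudogene on chromosome 18 whose transcript is 99.3% identical to *Rpl11*, had 4.09 and 2.45 CPM in WT and 338 and 295 CPM in null (log2 fold change 6.56). *Gm10093*, a processed pseudogene on chromosome 17 with 99.4% identity to *Hdac1*, had 0.961 and 0.546 CPM in WT and 46.5 and 48.7 CPM in null (5.91). *Gm10282*, on chromosome 8 with 99.3% identity to *Hmgn2*, 1.59 Mb from *Grhl3*, had 12.5 and 10.9 CPM in WT and 33.6 and 34.4 CPM in null (1.52). Reads of such copies can be split between them, so the values of each copy and of its parent gene are uncertain. Summed over both copies, *Gm10036* and *Rpl11* had 3564 and 3513 CPM in WT and 3293 and 3102 in null. The sums of *Gm10093* and *Hdac1* were 150 and 144 CPM in WT and 114 and 117 in null, and those of *Gm10282* and *Hmgn2* were 623 and 703 CPM in WT and 545 and 557 in null. Each sum was thus lower in null, and the rises of the copies were not seen in them. In the Foxf1 mesenchyme *Gm10036* had 4.54 and 4.05 CPM in WT and 340 and 307 CPM in null.

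For some posterior Hox genes the change between genotypes differed between Tbx4 cells and Foxf1 mesenchyme. Hox genes are ordered along their clusters by position in the body, and the groups after the ninth mark the most caudal levels. In Foxf1 mesenchyme *Hoxa11* had 4.36 and 4.48 CPM in WT and 0.494 and 0.690 CPM in null. In Tbx4 cells it had 26.2 and 26.2 CPM in WT and 22.4 and 21.6 CPM in null. The Tbx4 level was 5.93 times that of Foxf1 mesenchyme in WT and 37.2 times in null.

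The difference itself was tested as a class by genotype term in edgeR with the library as a block, and is the log2 change of null against WT in Tbx4 cells less that in Foxf1 mesenchyme. For *Hoxa11* it was 2.65 (edgeR adjusted p = 6.9e-07), and 2.68 without cluster 2 (edgeR adjusted p = 5e-17). Of 13890 genes tested, the term was positive for 142 (1.02% of genes tested) and negative for 122 (0.878%) at an adjusted p below 0.05. Without cluster 2 it was positive for 73 of 14001 genes (0.521%) and negative for 42 (0.3%), and 63 of these 115 genes were called both ways. Leaving out WT 1 gave 563 calls, leaving out WT 2 115 and leaving out null 1 170. Of 13 posterior Hox genes 6 passed with a positive term and 1 with a negative one, beside the shares of all genes just given. Without cluster 2 it was 7 and 0.

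*Hoxd10* had 23.3 and 19.9 CPM in WT Tbx4 cells and 16.0 and 16.7 CPM in null ones. In Foxf1 mesenchyme it had 9.54 and 9.79 CPM in WT and 1.79 and 1.94 CPM in null, which gave a term of 1.97 (edgeR adjusted p = 2.3e-06). *Hoxa10* had 109 and 121 CPM in WT and 95.5 and 97.9 CPM in null Tbx4 cells, against 27.0 and 30.8 CPM in WT and 8.53 and 7.82 CPM in null Foxf1 mesenchyme (1.57, edgeR adjusted p = 2.1e-09). In neither gene did the test in Tbx4 cells alone pass (edgeR adjusted p = 0.165 and 0.0954). *Hoxc10* and *Hoxd11*, which fell in Tbx4 cells, fell further in Foxf1 mesenchyme. *Hoxc10* went there from 64.9 and 74.1 CPM in WT to 9.0 and 9.91 CPM in null, and *Hoxd11* from 17.1 and 17.1 CPM to 1.68 and 1.40 CPM, with terms of 1.84 and 1.75 (edgeR adjusted p = 2.6e-06 and 0.00042). Without cluster 2 the terms were 2.34 for *Hoxd10*, 1.67 for *Hoxa10*, 2.35 for *Hoxc10* and 2.10 for *Hoxd11*, and all passed.

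*Hoxc11*, the remaining gene that passed with a positive term, rested on few UMIs, with 4 and 11 in the null Foxf1 mesenchyme and 86 and 84 in WT. In male cells alone the terms were 2.25 for *Hoxa11*, 1.87 for *Hoxd10*, 1.74 for *Hoxc10* and 1.55 for *Hoxa10*, and that for *Hoxa11* did not pass (edgeR adjusted p = 0.057). In female cells alone they were 2.33, 1.57, 1.24 and 1.44, and all 4 passed. For *Hoxd11* the terms were 1.15 in male cells, which did not pass (edgeR adjusted p = 0.272), and 1.17 in female cells, which did. Every interaction fit by sex included cluster 2. That cluster held 33 of 61 female and 20 of 72 male Tbx4 cells in WT, against 30 of 205 and 18 of 98 in null. Its part in the terms by sex was not tested. *Hoxb9* alone of the 13 passed with a negative term, and it did not pass without cluster 2, where *Hoxc9* passed with a positive one. The terms of *Hoxa13* and *Hoxd13* did not pass (edgeR adjusted p = 0.287 and 0.111). The comparator holds no cell with a *Tbx4* UMI by its rule, so caudal cells that lost *Tbx4* would be counted there.

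**Figure D5:**
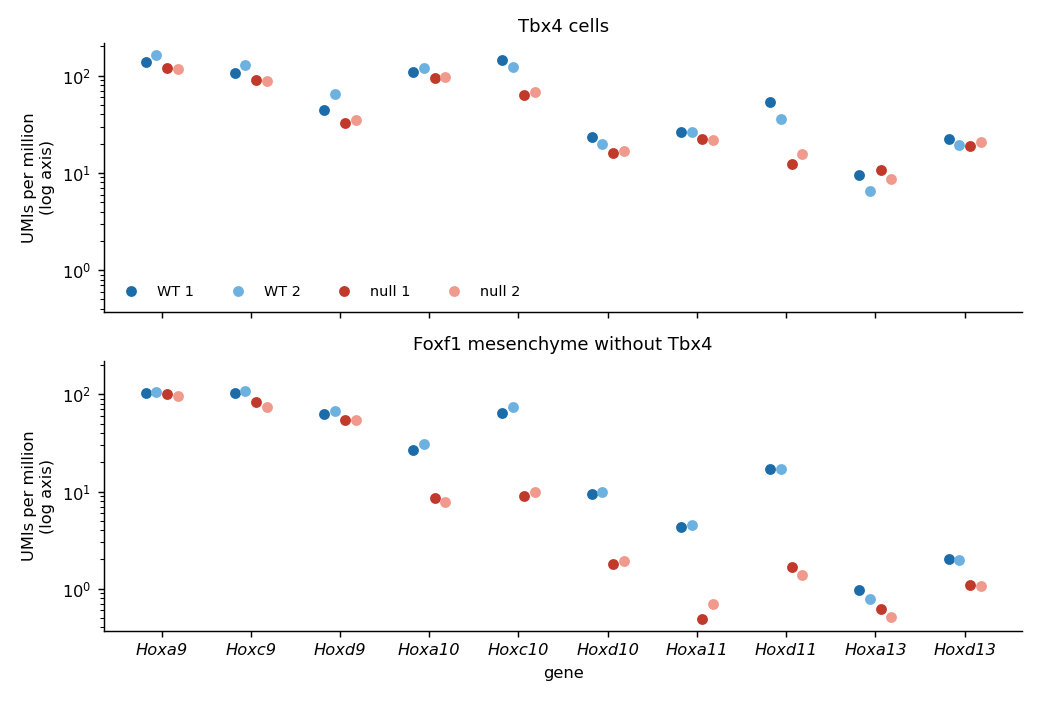
Level of 10 posterior Hox genes in CPM on a log axis, in Tbx4 cells (upper panel) and in Foxf1 mesenchyme without *Tbx4* (lower panel), with 1 point per library. For *Hoxa10*, *Hoxc10*, *Hoxd10*, *Hoxa11* and *Hoxd11* the null libraries lie far below the WT libraries in the lower panel and closer to them in the upper panel.

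The term of *Pitx1* was positive as well, at 0.93 (edgeR adjusted p = 4.3e-09), and 0.81 without cluster 2 (edgeR adjusted p = 5.7e-25), since *Pitx1* was lower in the Foxf1 mesenchyme of null libraries and not in Tbx4 cells. Without cluster 2 the terms for *Phlda2* and *Cdkn1c* were positive too (0.46 and 0.58, edgeR adjusted p = 2e-15 and 5e-19), and with cluster 2 they did not pass (edgeR adjusted p = 0.262 and 0.361). The 7 other genes with the largest positive terms were *Anxa2*, *Pcolce*, *Has2*, *Wnt2*, *Pgf*, *Nup62cl* and *Ccdc80*. Of these, *Anxa2*, *Has2* and *Pgf*, a placental growth factor of the VEGF family, also passed without cluster 2, at 1.23, 0.88 and 0.67. In male cells alone none of these 7 passed with a positive term. There *Wnt2* had -2.58, which passed with the opposite sign (edgeR adjusted p = 0.00218), *Ccdc80* had -0.12, and *Anxa2*, *Has2* and *Pgf* had 0.54, 0.47 and 0.18. In female cells alone all 7 passed with a positive term, but cluster 2, unevenly spread over the female cells of the genotypes as given above, was included.

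Among the 12 largest negative terms were *Notum*, *Cxcr4*, *Cmtm8*, *Irx3*, *Wfdc2*, *Limch1*, *Pctp*, *Hoxa3*, *Uchl1* and *Spry4*, and the Y-linked genes *Ddx3y* and *Eif2s3y*. *Ddx3y* had 19.7 and 25.6 CPM in WT and 15.2 and 14.6 CPM in null Tbx4 cells, while in Foxf1 mesenchyme it had 15.7 and 16.7 CPM in WT and 25.1 and 24.6 CPM in null. The male share of the Tbx4 cells moved the same way, and its part in other terms was not tested. Of the rest, *Irx3*, an Iroquois homeobox gene, and *Spry4*, an inhibitor of receptor tyrosine kinase signalling, also passed without cluster 2 (-0.94 and -1.05). In male cells alone *Irx3* had -0.38 and *Spry4* 0.69, the opposite sign, and neither passed. The terms of *Cxcr4* and *Uchl1* were also positive there (0.40 and 0.0917), that of *Pctp* was positive in female cells (0.29), and those of *Notum* and *Limch1* were positive without cluster 2 (1.07 and 0.0529). Of 23 anterior Hox genes 10 passed with a negative term, against 0.878% of all genes tested, and none with a positive one. Without cluster 2 only *Hoxd1* and *Hoxa5* passed with a negative term, against 0.3% of all genes tested.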

How the data were processed

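Cell Ranger 3.0.0 with mm10 was used by the authors, who deposited raw UMI counts per gene and cell for 24239 barcodes. The counts were used as deposited. The filters on cells were those of the study, and they left 20198 cells, a number close to the one it states for the same filters. The members and the gene lists were chosen with earlier results of these data known. Libraries were assigned to genotype by their labels.

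UMIs were summed per class and library. Genotype was tested with edgeR 4.0.16 (TMM, filterByExpr, robust quasi-likelihood test) in R 4.3.3, adjusted by the Benjamini-Hochberg method over all genes tested, and DESeq2 1.42.0 served as an alternative. The gate genes were left out of the counts of calls. The genes named were the 5 markers, the genes of the lists, the 12 with the largest change each way with an adjusted p below 0.05 and a mean of at least 10 CPM, and the 15 with the highest fold over Foxf1 mesenchyme. Among the 12 largest rises, 1 gene is not reported here. Genes named after their values were seen were the leading genes of the clusters, *Vcan*, *Rpl11* and *Hmgn2* as parents of copies, the X-linked genes and the genes of sterol synthesis.

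Clusters were made with scanpy 1.11.5 (2000 variable genes, 20 principal components, 15 neighbours, Leiden resolution 0.5). The automatic threshold of Scrublet had not worked (0.147% to 0.176% of cells marked), so the top 5% of scores in each library stood for doublets, and these cells were left out only in an alternative. A cell was called male with 2 or more UMIs of 4 Y-linked genes and 2 or fewer of *Xist*, and female with 3 or more of *Xist* and 1 or fewer of the Y-linked genes. Positions came from GENCODE (30934 of 31055 genes matched), and transcripts were compared with blastn 2.17.0. The libraries of a genotype differed by more than sampling noise over the Tbx4 cells (chi-square per degree of freedom 1.85 in WT and 2.60 in null).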

Additional observations from a re-analysis of the deposited data

Results flagged for a closer look

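The change between genotypes differed between Tbx4 cells and Foxf1 mesenchyme, by the interaction test with and without cluster 2, for 12 of the genes with the largest terms. On the log2 scale the term was 2.65 for *Hoxa11*, 1.97 for *Hoxd10*, 1.84 for *Hoxc10*, 1.75 for *Hoxd11*, 1.57 for *Hoxa10*, 1.45 for *Anxa2*, 1.17 for *Has2* and 1.10 for *Pgf*. It was -1.21 for *Ddx3y*, -1.03 for *Eif2s3y*, -0.89 for *Irx3* and -0.80 for *Spry4*. In male cells alone the terms of *Hoxd10*, *Hoxc10* and *Hoxa10* passed and the other 9 did not, with *Spry4* at 0.69 and *Eif2s3y* at 0.16, the opposite sign. In female cells alone all passed but the Y-linked pair. Both fits by sex included cluster 2, whose part in them was not tested. The part of single embryos was not tested.

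The female share of sexed Tbx4 cells outside cluster 2, less that of the other filtered cells, was -35.9 points in WT 1 and -43.4 points in WT 2, but 23.6 points in null 1 and 29.0 points in null 2. Both libraries of each genotype moved the same way and the genotypes moved in opposite ways. The difference was not tested, and embryo and genotype cannot be told apart.

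The files hold 2 *LacZ* features that entered no comparison. All filtered cells held 15 UMIs of it in null 1 and 25 in null 2, and none in WT. The Tbx4 cells held none, and at so low a level in the other cells this says nothing of a difference.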

How the results depend on the processing

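Calls between genotypes in Tbx4 cells numbered 356, against 665 with no filter on low counts, 113 by DESeq2, 37 in male and 1110 in female cells, 19, 34, 29 and 21 in clusters 1 to 4 alone, 50 without cluster 2 and 11 in male cells without it. Calls of the interaction numbered 264, against 429 with no filter, 90 by DESeq2, 63 in male and 832 in female cells and 115 without cluster 2. Leaving out 1 library each gave 248 to 630 and 115 to 563 calls and differences in share of 1.56 to 2.22 points, where a lone library is assumed to vary like the other genotype. The difference in share was -0.777 points in male cells against 1.89 in all, and 1.33 with no cell filter. At Leiden resolution 1.0 there were 8 clusters in place of 4. Alternatives with clusters were chosen after seeing the data, except cluster 1 alone.

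The shared replicate numbers did not pair the libraries (correlation of deviations 0.0292 over 10800 genes, 2 pairs). With the replicate block there were 509 calls, and without cluster 2 the block gave 217.

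Among the genes of largest change, 7 of the genotype test changed sign, in 10 pairs of gene and setting. For the interaction 10 genes changed sign, each under 1 setting. In female cells these were the interaction terms of *Ddx3y* (5.55, Y-linked) and *Pctp* (0.29), and the others are given last. For the genotype test, the changes of opposite sign in cluster 3 alone were *Cd44* (-0.22), *Limch1* (0.41) and *Smim10l2a* (0.0008). In cluster 4 alone they were *Tceanc2* (0.0372) and *Cdx4* (0.0412). In male cells without cluster 2 they were *Itpk1* (0.18), *Cda* (0.38), *Smim10l2a* (0.0412) and *Cdx4* (0.27), and in female cells without it *Tceanc2* (0.0387). The interaction terms of *Wnt2* (-2.58), *Ccdc80* (-0.12), *Cxcr4* (0.40), *Eif2s3y* (0.16), *Uchl1* (0.0917) and *Spry4* (0.69) changed sign in male cells. Those of *Notum* (1.07) and *Limch1* (0.0529) did so without cluster 2. The cause was not tested. The limits are 1 pool per genotype, 163 WT and 330 null Tbx4 cells, and *Tbx4* counts near the threshold in many cells.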

Other observations

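Among the genes highest in Tbx4 cells over Foxf1 mesenchyme, X-linked genes were frequent. Of the 40 highest folds among genes with a mean of at least 10 CPM, 11 were X-linked, against 3.39% of the 7677 genes: *Capn6*, *Plac1*, *Pcsk1n*, *Morc4*, *Amot*, *Spin2c*, *Nup62cl*, *Itm2a*, *Suv39h1*, *Lpar4* and *Dgkk*. In male cells alone the count was 9 of 40, in female cells alone 10 of 40, and without cluster 2 it was 9 of 40. The X chromosome as a whole was not higher, with a median log2 fold of 0.00 for X-linked and 0.02 for other genes. The contrast is the one that chose the cells, so these counts are a description, and the pattern was noticed after the values were seen.

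Some genes of sterol synthesis and uptake, from a list of 21 drawn up after their values were seen, fell in the null Tbx4 cells. By the edgeR test 13 of 21 fell and none rose, and without cluster 2 it was 7 of 20 and none. Over all genes tested 1.39% and 0.227% fell, but since these genes were picked for their fall, the count is a description and nothing is read from it. Summed over the list, Foxf1 mesenchyme was lower in null as well, with 959 and 985 CPM in WT and 721 and 722 CPM in null. *Hmgcs1*, the synthase at the entry of the mevalonate pathway, had 111 and 89.2 CPM in WT and 72.2 and 62.5 CPM in null, a log2 fold change of -0.58 (edgeR adjusted p = 0.00945), and -0.95 without cluster 2. *Msmo1*, a sterol oxidase gene, had 51.0 and 55.6 CPM in WT and 30.1 and 26.7 CPM in null (-0.90, edgeR adjusted p = 0.0002). *Fdps*, which makes farnesyl diphosphate, had 98.1 and 106 CPM in WT and 59.1 and 63.4 CPM in null (-0.75, edgeR adjusted p = 6.1e-05). None of the 21 passed the interaction test with Foxf1 mesenchyme with cluster 2 included, and *Hmgcs1* passed without it (-0.49, edgeR adjusted p = 0.00215).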
